A study of Mus musculus with 8 samples.

Results

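The genes described here are 10 genes of bile acid synthesis, conjugation and transport in mouse liver: Cyp7a1, Cyp8b1, Cyp27a1, Cyp7b1, Cyp39a1, Baat, Slc27a5, Slc10a1, Slc51b and Abcb11. Their probes were found by gene name, as all array probes whose name or accession belongs to one of them. That gave 13 probes of 41174 and 10 genes of 27599. Slc51b carries its older name Ostb in the files and was matched by accession. Of the 3 transporters only Abcb11 acts at the canalicular membrane, and Slc10a1 and Slc51b act at the sinusoidal side of the hepatocyte.

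Liver RNA of ICR scid mice, all 8 weeks old, was pooled and compared on 8 two-colour arrays in 4 comparisons of 2 arrays each. ICR scid mice carry the scid mutation, which leaves them without mature B and T cells, so every group shares that defect. Untreated males (10 mice) were set against untreated females (10 mice). Males given Adeno-Cux2, an adenovirus carrying the homeobox transcription factor Cux2, were set against males given Adeno-CMV at day 3 (11 and 11 mice) and day 5 (12 and 13 mice), and females labelled Adeno-Cux2 against females labelled Adeno-CMV at day 5 (8 and 7 mice). Each array held its own pair of pools of 3 to 7 mice with the dyes reversed between the 2 arrays, so n is 2 arrays in every comparison. Statements that groups did not overlap describe 2 pools on each side, and the share of all genes without overlap was not counted. Errors after ± are standard errors of the limma fit. They and the p-values rest on 1 spread per probe over all 4 comparisons, after removal of a shared difference between replicates 1 and 2. They therefore measure neither the spread between mice nor that between the 2 arrays of 1 comparison. Those 2 arrays can lie further apart than ± shows, as for Cyp27a1 in untreated mice (0.56 and 0.07, ± 0.08). In bulk liver RNA, fewer cells of a type and less RNA per cell cannot be told apart.

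Bile acids are made from cholesterol in hepatocytes. In the classical route Cyp7a1 carries out the first and rate-limiting step and Cyp8b1 directs synthesis to cholic acid, while Cyp27a1 and Cyp7b1 start the alternative route through oxysterols and Cyp39a1 hydroxylates an oxysterol that comes largely from brain. Slc27a5, a bile acyl-CoA synthetase, and Baat, an acyltransferase, attach taurine or glycine. Slc10a1 (NTCP) takes bile acids up from blood, Abcb11 (the bile salt export pump) secretes them into bile, and Slc51b is the beta subunit of an exporter back to blood.

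Promoter sequences are shown for Slc10a1 and Cyp8b1, which were lower in every comparison of pools labelled Adeno-Cux2, and for Slc51b, which was higher in all of them. They run from 250 bases before to 50 bases after the RefSeq start on GRCm38.p6, 5′ to 3′ on the strand of the gene (minus for all 3), and capitals mark matches to TTCNNNGAA, the spaced palindrome bound by STAT5. The windows are chr12:80968656-80968955 for Slc10a1, chr9:65422724-65423023 for Slc51b and chr9:121916256-121916555 for Cyp8b1.
Slc10a1: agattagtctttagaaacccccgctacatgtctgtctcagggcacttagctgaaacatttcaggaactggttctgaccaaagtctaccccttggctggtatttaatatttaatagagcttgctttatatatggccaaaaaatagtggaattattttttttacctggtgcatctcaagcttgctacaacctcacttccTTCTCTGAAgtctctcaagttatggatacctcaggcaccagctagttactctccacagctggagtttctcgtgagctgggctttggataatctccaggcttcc
Slc51b: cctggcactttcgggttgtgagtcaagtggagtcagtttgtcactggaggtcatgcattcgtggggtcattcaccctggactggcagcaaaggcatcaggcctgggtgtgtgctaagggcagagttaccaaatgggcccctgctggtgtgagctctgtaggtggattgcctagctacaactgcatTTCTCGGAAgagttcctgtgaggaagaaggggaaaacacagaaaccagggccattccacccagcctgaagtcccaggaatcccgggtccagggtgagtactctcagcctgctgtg
Cyp8b1: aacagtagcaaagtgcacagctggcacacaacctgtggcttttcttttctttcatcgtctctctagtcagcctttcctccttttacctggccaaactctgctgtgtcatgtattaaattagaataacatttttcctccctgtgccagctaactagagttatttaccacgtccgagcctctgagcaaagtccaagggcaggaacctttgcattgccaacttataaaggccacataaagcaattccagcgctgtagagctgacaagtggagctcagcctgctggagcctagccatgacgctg
The Slc10a1 window holds 1 match, starting 53 bases before the start, and the Slc51b window 1 match, starting 65 bases before it. Cyp8b1 holds none, and neither does the window of a second RefSeq start of Slc10a1, at chr12:80968030-80968329. Promoters of 5 of the 10 genes were matched by symbol (Cyp8b1, Cyp27a1, Slc10a1, Slc51b and Abcb11), and TTCNNNGAA is in 2 of the 5. Of the promoters of 27025 genes, 8.47% hold it on either strand. ATCAAT and ATCGAT, motifs of Cux and HNF6 proteins, are in 0 of the 5 and in 7.76% and 0.88% of all promoters. TCAAGGTCA, the motif of LRH-1, is in 0 of the 5 and 0.41% of all. A match is a description of the letters, not a binding site.

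All 13 probes passed the filter on dim probes, stood well above background in both channels of all 8 arrays and had no saturated or outlier spot. Median spot signals ran from 343 to 442 (green channel) and from 430 to 512 (red channel). Log2 ratios of the 2 arrays in a comparison had a Pearson r across all probes that passed the filter of 0.596 (untreated mice), 0.890 (males, day 3), 0.865 (males, day 5) and 0.681 (females, day 5), as a description, since probes are not replicates. The brighter of 2 Cux2 probes was set beside the labels. It had log2 ratios of 0.39 and 0.58 in males at day 3 and 0.61 and 0.60 at day 5, but −0.58 and −0.65 in females. The female pools labelled Adeno-Cux2 thus had less Cux2 signal than those labelled Adeno-CMV. Whether the probe reads the viral Cux2 is not stated, so it cannot decide which virus the female pools were given. Untreated males also had less Cux2 signal than females (−1.74 and −2.02), a larger difference than on any array of treated mice. Of 10 hepatocyte markers 8 were tested, and all 8 were above background in every group.

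Untreated males had more Cyp7b1 and Cyp8b1 RNA than females and less Cyp39a1 and Slc51b. The largest sex difference among the 10 genes was in Cyp7b1, the oxysterol hydroxylase, 8.43-fold higher in males. Males were higher for 2 and lower for 2 of the 10 genes, where 4.84% and 6.04% of 22226 genes were called higher and lower (limma, adjusted p under 0.05). The median log2 ratio of the 10 genes was −0.09, against −0.01 over all genes.

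Cyp7b1 had log2 signals of 16.61 and 17.53 in the untreated male pools, against 13.64 and 14.35 in the female pools. The sexes did not overlap, and the log2 ratio was 3.08 ± 0.10 (adjusted p = 2.9e-05). By absolute size it ranked 27 of 22226 genes. Cyp8b1, the cholic acid hydroxylase, had 12.63 and 12.81 in male pools, against 11.25 and 11.91 in female pools. Its ratios on the 2 arrays were 1.38 and 0.90, with a fitted value of 1.14 ± 0.20 (2.20-fold, adjusted p = 0.0177). Cyp39a1 went the other way, with 9.23 and 9.98 in male pools, against 11.78 and 11.92 in female pools. It was 4.75-fold lower in males (−2.25 ± 0.13, adjusted p = 0.000272), with no overlap between the sexes. Slc51b, the exporter subunit, was dim in both sexes, at 7.56 and 7.43 in male pools against 8.32 and 8.10 in female pools. Its log2 ratio was −0.71 ± 0.13 (adjusted p = 0.0208).

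The other 6 genes did not pass the test in untreated mice. Cyp7a1, the rate-limiting enzyme, stood at −0.58 and −0.70 on the 2 arrays (−0.64 ± 0.21, adjusted p = 0.109). Fitted with limma to the 4 arrays of the slide alone, Cyp7a1 passed (adjusted p = 0.00478). The mitochondrial hydroxylase Cyp27a1 stood at 0.56 and 0.07 (0.32 ± 0.08, adjusted p = 0.0589). The conjugation genes had values near 0, with Slc27a5 at −0.18 ± 0.09 and Baat at 0.14 ± 0.10. The uptake carrier Slc10a1 had a log2 ratio of 0.00 ± 0.11 with a 95% interval from −0.26 to 0.26, and the export pump Abcb11 had −0.20 ± 0.07 (adjusted p = 0.125). Without replicate 1 the calls of Cyp8b1 (0.74, adjusted p = 0.267) and Slc51b (−0.56, adjusted p = 0.286) were lost. Exocrine pancreas markers (6 tested of 8) had a median log2 ratio of −0.09 on replicate 1 and 3.25 on replicate 2, with a summed log2 signal of 9.86 to 14.5 in male pools and 9.91 to 11.0 in female pools, and their part in the ratios was not tested.

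**Figure D1:**
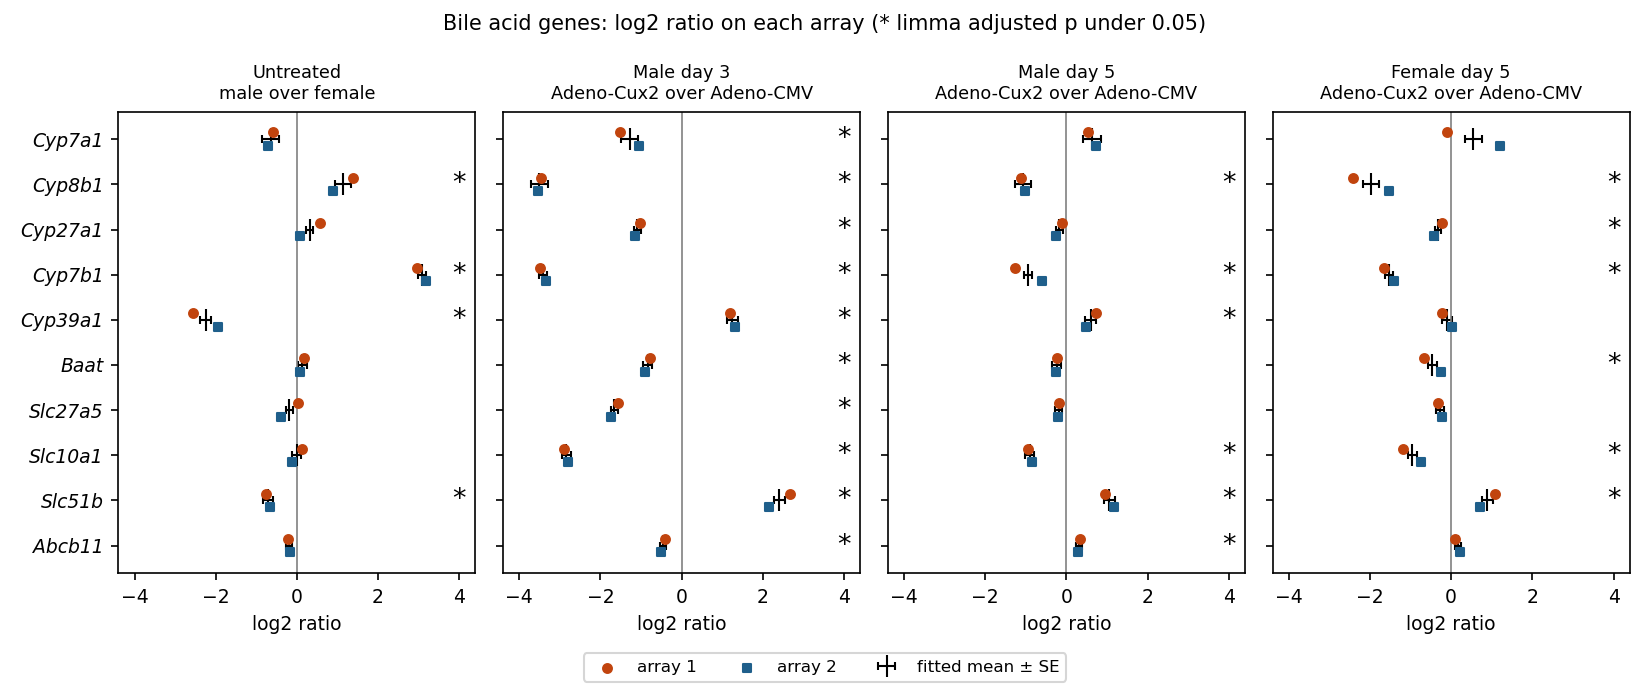
Log2 ratios (x axis, first-named over second-named group) of the 10 genes in the 4 comparisons: circles are array 1, squares array 2, black bars the fitted mean with its standard error, and stars mark limma adjusted p under 0.05. Every gene is starred in males at day 3, and Cyp7b1, Cyp8b1 and Slc10a1 lie left of 0 on both arrays of each comparison of pools labelled Adeno-Cux2.

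At day 3 in males all 10 genes differed between Adeno-Cux2 and Adeno-CMV. Both synthesis routes, both conjugation genes, the uptake carrier and the export pump fell, and Cyp39a1 and Slc51b rose. The counts were 2 higher and 8 lower of 10, in a comparison where 23.9% of all genes were called higher and 20.3% lower. Their median log2 ratio was −1.18, against 0.00 over all genes, and 80% of them had an absolute log2 ratio of at least 1, against 7.98% of all genes.

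Cyp8b1 had the lowest fitted log2 ratio of the 10, close to that of Cyp7b1. Over the alternatives Cyp8b1 ran from −3.83 to −2.93 and Cyp7b1 from −3.52 to −3.31, so their order was not fixed. Log2 signals of Cyp8b1 were 8.68 and 8.57 in Adeno-Cux2 pools, against 12.15 and 12.11 in Adeno-CMV pools, an 11.3-fold lower level (−3.50 ± 0.20, adjusted p = 3.49e-05). The groups lay far apart and the 2 arrays gave nearly the same ratio, −3.47 and −3.54. Cyp7a1 had 13.89 and 13.61 in Adeno-Cux2 pools, against 15.40 and 14.66 in Adeno-CMV pools. It was 2.42-fold lower (−1.28 ± 0.21, adjusted p = 0.00286). Thus both hydroxylases of the classical route fell, Cyp8b1 by the larger log2 ratio.

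In the alternative route Cyp7b1 had log2 signals of 14.04 and 13.50 in Adeno-Cux2 pools, against 17.54 and 16.83 in Adeno-CMV pools. Its log2 ratio was −3.41 ± 0.10 (adjusted p = 1.04e-05), and the 2 groups lay far apart. The Adeno-Cux2 males' values lay near the 13.64 and 14.35 of untreated females, on arrays of another slide and with no test between them. Cyp27a1 had 11.84 and 11.77 in Adeno-Cux2 pools, against 12.87 and 12.93 in Adeno-CMV pools (−1.09 ± 0.08, adjusted p = 9.2e-05). Cyp39a1 rose, with 12.02 and 12.27 in Adeno-Cux2 pools, against 10.83 and 10.97 in Adeno-CMV pools. Its log2 ratio was 1.25 ± 0.13 (2.38-fold, adjusted p = 0.000367), and the groups did not overlap.

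Of the conjugation genes, the acyl-CoA synthetase Slc27a5 had 14.15 and 14.06 in Adeno-Cux2 pools, against 15.73 and 15.80 in Adeno-CMV pools. It was 3.16-fold lower (−1.66 ± 0.09, adjusted p = 3.31e-05). The acyltransferase Baat had 13.95 and 14.11 in Adeno-Cux2 pools, against 14.73 and 15.004 in Adeno-CMV pools (−0.84 ± 0.10, adjusted p = 0.000766). Neither gene's groups overlapped.

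The transporters moved in opposite directions. Slc10a1, whose promoter is printed above, had 12.30 and 12.02 in Adeno-Cux2 pools, against 15.19 and 14.82 in Adeno-CMV pools. Uptake carrier RNA was 7.20-fold lower (−2.85 ± 0.11, adjusted p = 1.54e-05). Slc51b had 11.49 on both arrays in Adeno-Cux2 pools, against 8.83 and 9.34 in Adeno-CMV pools. The exporter subunit was 5.30-fold higher (2.41 ± 0.13, adjusted p = 3.06e-05). Abcb11 changed least of the 10, with 15.29 and 15.20 in Adeno-Cux2 pools against 15.69 and 15.72 in Adeno-CMV pools. The pump was 1.38-fold lower (−0.46 ± 0.07, adjusted p = 0.00183), and without replicate 2 its call was lost (adjusted p = 0.0518).

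**Figure D2:**
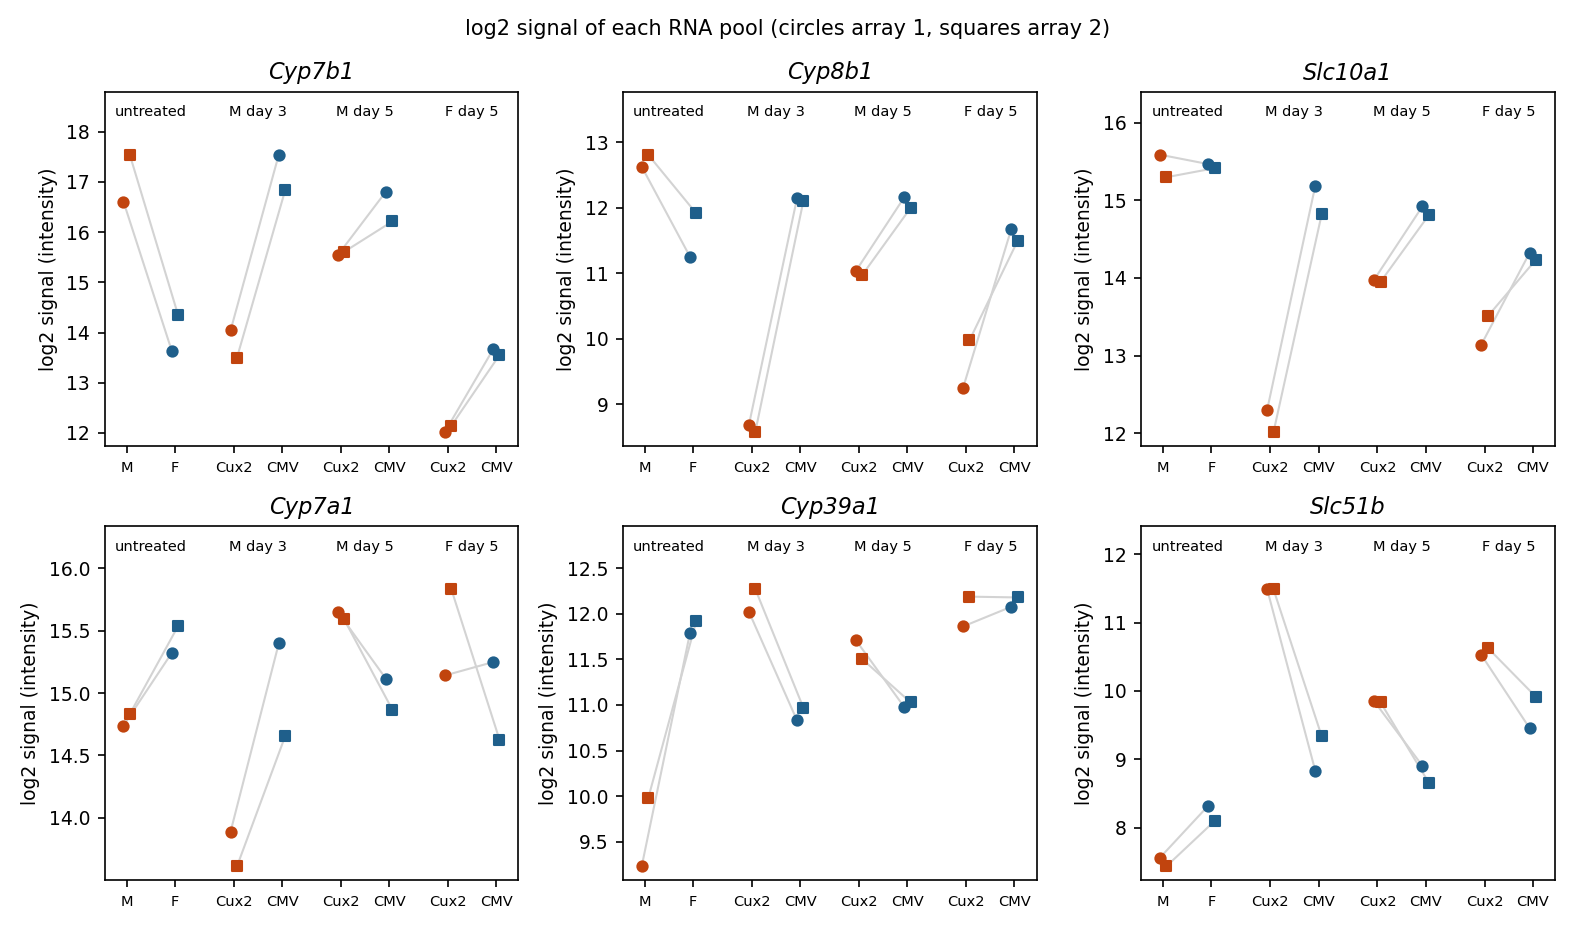
Normalised log2 signal (y axis) of each RNA pool for 6 of the genes, with M and F for untreated males and females, Cux2 and CMV for pools labelled Adeno-Cux2 and Adeno-CMV, and grey lines joining the 2 pools of an array. The day 3 Adeno-Cux2 pools are the lowest male pools for Cyp8b1 and Slc10a1 (12.30 and 12.02 for Slc10a1) and the highest for Slc51b (11.49 on both arrays).

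At day 5 in males fewer genes differed and the log2 ratios were smaller. Cyp8b1, Cyp7b1 and Slc10a1 were still lower with Adeno-Cux2, Slc51b and Cyp39a1 still higher, and Abcb11 was now higher. The counts were 3 higher and 3 lower of 10, where 13.8% and 4.82% of all genes were called, and the median was −0.18 against 0.01 over all genes.

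Cyp8b1 had log2 signals of 11.04 and 10.98 in Adeno-Cux2 pools, against 12.16 and 12.00 in Adeno-CMV pools (−1.07 ± 0.20, adjusted p = 0.0119). Cyp7b1 had 15.54 and 15.61 in Adeno-Cux2 pools, against 16.80 and 16.21 in Adeno-CMV pools (−0.94 ± 0.10, adjusted p = 0.000921). Slc10a1 had 13.98 and 13.95 in Adeno-Cux2 pools, against 14.92 and 14.81 in Adeno-CMV pools (−0.90 ± 0.11, adjusted p = 0.00193). For none of these 3 genes did the groups overlap. Slc51b had 9.85 and 9.83 in Adeno-Cux2 pools, against 8.91 and 8.66 in Adeno-CMV pools, 2.08-fold higher (1.06 ± 0.13, adjusted p = 0.00201). Cyp39a1 had 11.71 and 11.50 in Adeno-Cux2 pools, against 10.98 and 11.03 in Adeno-CMV pools (0.60 ± 0.13, adjusted p = 0.022). Abcb11 stood 1.24-fold higher (0.31 ± 0.07, adjusted p = 0.0239).

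Cyp7a1 had 15.65 and 15.59 in Adeno-Cux2 pools, against 15.11 and 14.87 in Adeno-CMV pools, so its groups did not overlap, but it missed the test (0.63 ± 0.21, adjusted p = 0.0959). It passed on the 2 arrays of the comparison alone (adjusted p = 0.000449), on the 4 arrays of the slide (0.00232) and without either female array (0.0101). The values of Cyp27a1, Slc27a5 and Baat were −0.18 ± 0.08, −0.19 ± 0.09 and −0.24 ± 0.10. With 1 of its own arrays left out, males at day 5 kept 2 calls in place of 6: Cyp7b1 was called both times, Slc51b without replicate 1 and Cyp39a1 without replicate 2. With the scanner software's own log ratios the calls of Cyp8b1 (−1.14, adjusted p = 0.0572), Cyp39a1 (0.102) and Abcb11 (0.0951) were lost.

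The day 5 response in males was tested against that at day 3 in the same fit. The difference was called for 9 of the 10 genes, 8 higher and 1 lower, where 8.15% and 4.9% of all genes were called. Both times point the same way for 8 of the 10 genes, and the ratio lay nearer 0 at day 5 for all of these 8. Ratios were also smaller at day 5 over all genes, with 7.98% at an absolute log2 ratio of at least 1 at day 3 and 3.55% at day 5. The share of all genes lying nearer 0 at day 5 was not counted. For Slc51b the difference was −1.35 ± 0.19 (adjusted p = 0.00764). The largest were those of Cyp7b1 (2.48 ± 0.14, adjusted p = 0.000903) and Cyp8b1 (2.43 ± 0.28, adjusted p = 0.00501), followed by Slc10a1 (1.95 ± 0.16) and Cyp7a1 (1.91 ± 0.30, adjusted p = 0.0112).

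For Slc27a5 the difference was 1.47 ± 0.13, for Cyp27a1 0.91 ± 0.12, for Abcb11 0.77 ± 0.10 and for Baat 0.59 ± 0.15 (adjusted p = 0.0455). Cyp7a1 and Abcb11 changed sign between the times. Cyp39a1 missed the test (−0.65 ± 0.19, adjusted p = 0.0695). Day 3 and day 5 males were separate mice on separate slides read with different versions of the scanner software, so time and slide cannot be told apart in these differences. Without replicate 1 of day 5 the count was 3, and without replicate 2 it was 2. With the software's log ratios it was 4.

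**Figure D3:**
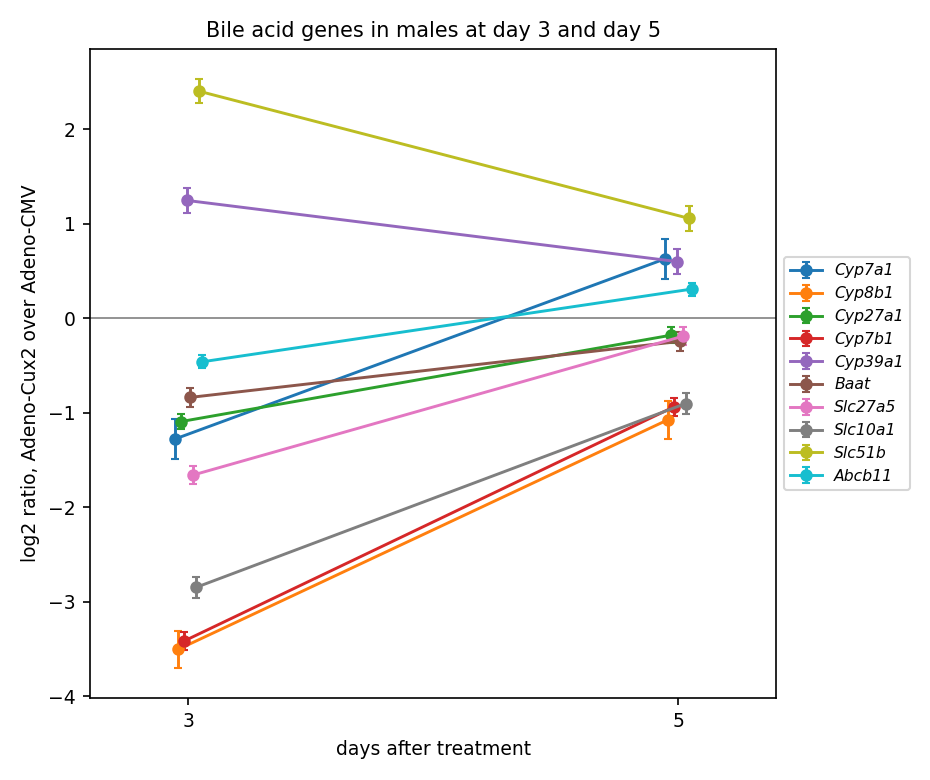
Log2 ratio of Adeno-Cux2 over Adeno-CMV in males (y axis, fitted mean with its standard error) at 3 and 5 days after treatment (x axis), 1 line per gene. Cyp8b1 and Cyp7b1 stand at −3.50 and −3.41 at day 3 and at −1.07 and −0.94 at day 5, and the lines of Cyp7a1 and Abcb11 cross 0.

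In females at day 5 the pools labelled Adeno-Cux2 had less Cyp8b1, Cyp7b1, Slc10a1, Baat and Cyp27a1 RNA and more Slc51b RNA than those labelled Adeno-CMV. These directions rest on the labels, against which the Cux2 probe goes in females. Of the 10 genes 1 was higher and 5 lower, where 12.7% and 6.25% of all genes were called, and the median was −0.30 against 0.00 over all genes.

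Cyp8b1 had log2 signals of 9.25 and 9.98 in pools labelled Adeno-Cux2, against 11.67 and 11.50 in pools labelled Adeno-CMV. It was 3.93-fold lower (−1.97 ± 0.20, adjusted p = 0.0012), with no overlap. Cyp7b1 had 12.02 and 12.14 in pools labelled Adeno-Cux2, against 13.66 and 13.55 in pools labelled Adeno-CMV, 2.88-fold lower (−1.53 ± 0.10, adjusted p = 0.000289). Both female groups lay below the Adeno-CMV males of day 5 (16.80 and 16.21), which were on the other slide. Slc10a1 had 13.14 and 13.51 in pools labelled Adeno-Cux2, against 14.32 and 14.24 in pools labelled Adeno-CMV (−0.96 ± 0.11, adjusted p = 0.00196). Slc51b had 10.53 and 10.63 in pools labelled Adeno-Cux2, against 9.46 and 9.91 in pools labelled Adeno-CMV (0.89 ± 0.13, adjusted p = 0.0049). The smaller calls were Baat (−0.46 ± 0.10, adjusted p = 0.0248) and Cyp27a1 (−0.32 ± 0.08, adjusted p = 0.0376). These 2 calls were lost in 8 and 13 of 20 alternatives.

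Cyp39a1, lower in untreated males than in females, stood at −0.10 ± 0.13 in females with a 95% interval from −0.42 to 0.21, and its pools overlapped. Slc27a5 stood at −0.27 ± 0.09 (adjusted p = 0.096) and Abcb11 at 0.16 ± 0.07 (adjusted p = 0.169). Cyp7a1 had −0.11 on replicate 1 and 1.21 on replicate 2 (0.55 ± 0.21, adjusted p = 0.133), and without replicate 1 it was called at 1.12 (adjusted p = 0.0188). Exocrine pancreas markers had medians of 4.11 on replicate 1 and −0.71 on replicate 2, with a summed log2 signal of 9.84 to 17.2 in pools labelled Adeno-Cux2 and 10.6 to 12.8 in pools labelled Adeno-CMV. Without replicate 1, Cyp8b1, Cyp7b1 and Slc10a1 were still called (−1.45, −1.58 and −0.72), and Slc51b (0.75, adjusted p = 0.0999), Baat and Cyp27a1 were not.

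At day 5 the response in females was then set against that in males, within the same fit. None of the 10 genes differed at an adjusted p under 0.05 in limma, where 0.0405% and 0.184% of all genes were called higher and lower. At an unadjusted p under 0.05 there were 3: Cyp8b1 (female minus male −0.90 ± 0.28, adjusted p = 0.313), Cyp7b1 (−0.59 ± 0.14, adjusted p = 0.171) and Cyp39a1 (−0.70 ± 0.19, adjusted p = 0.22). At that unadjusted threshold 3.5% of all genes were higher and 7.33% lower. For Cyp7b1 the 95% interval of the difference ran from −0.91 to −0.27 and for Cyp39a1 from −1.15 to −0.26. For the other 7 genes the intervals included 0, the widest being that of Cyp7a1, from −0.79 to 0.63, and that of Slc10a1 from −0.42 to 0.32. Sex and slide cannot be told apart in this contrast.

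The contrast also rests on the labels of the female pools, against which their Cux2 probe goes. In an alternative chosen after seeing the data, the sign of both female arrays was turned. The female minus male difference was then called higher for 6 and lower for 3 of the 10 genes, where 10.2% and 19.1% of all genes were called higher and lower. It was 3.05 ± 0.28 for Cyp8b1, 2.46 ± 0.14 for Cyp7b1, 1.86 ± 0.16 for Slc10a1 and −1.95 ± 0.19 for Slc51b. Turning replaces the difference by minus the sum of the female and male responses, so genes that responded alike in both sexes come out apart. These calls follow from the labelled responses and cannot show whether the female labels are right. The statement that no difference was called holds only if they are.

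Set side by side, the sex difference and the male response ran in opposite directions for the 4 genes called in untreated mice. The male-higher Cyp7b1 and Cyp8b1 were lower with Adeno-Cux2 at both times, and the female-higher Cyp39a1 and Slc51b were higher. Slc10a1 and Slc27a5, at 0.00 and −0.18 between the untreated sexes, also fell at day 3, by 2.85 and 1.66 on the log2 scale. Among genes not called in untreated mice, Cyp7a1 (−0.64, and −1.28 at day 3) and Abcb11 (−0.20 and −0.46) ran the same way, as Slc27a5 did. In some alternatives Cyp7a1 was called in untreated mice. Cyp27a1 (0.32 and −1.09) and Baat (0.14 and −0.84) ran in opposite directions. These comparisons share no pools. The opposite directions of the 4 called genes are a description, and the share of all genes that do so was not counted.

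Cyp7a1, Cyp39a1 and Baat had a second, dimmer probe, and both probes of each gene gave the same sign wherever one was called. The second Cyp7a1 probe gave −1.14 ± 0.22 at day 3 (adjusted p = 0.00589) and 0.51 ± 0.22 in males at day 5. The second Cyp39a1 probe gave −1.52 ± 0.08 in untreated mice, 0.95 ± 0.08 at day 3, 0.49 ± 0.08 in males at day 5 and −0.07 ± 0.08 in females. It also called the day 5 minus day 3 difference (−0.46, adjusted p = 0.0472), which the brighter probe did not. The second Baat probe gave −0.99 ± 0.10 at day 3 and, just short of the threshold, −0.36 ± 0.10 in females (adjusted p = 0.052). The Cyp7b1 and Cyp8b1 values rest on 1 probe each, at chr3:18264437-18264496 and chr9:121764175-121764234 on mm8.

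Of 40 other genes of the pathway 38 were tested, as 12 synthesis partners, 14 transport partners and 12 regulators. At day 3 in males 5 of the 38 rose and 21 fell, with a median of −0.42, where 23.9% and 20.3% of all genes were called higher and lower. Of the synthesis partners 8 fell and 1 rose, of the transport partners 8 fell and 2 rose, and of the regulators 5 fell and 2 rose. The 4 largest changes were in Slco1a1, an organic anion uptake carrier (−3.92 ± 0.16, 15.1-fold lower), Abcc4, a basolateral efflux pump (2.65 ± 0.13, 6.30-fold higher), Ch25h, an oxysterol-forming hydroxylase (1.93 ± 0.22), and Abcb1a, a drug efflux pump (1.83 ± 0.11). Slc51a, the partner subunit of Slc51b, was not tested, since its 2 probes were at or near background, the better one being above it in 1 of 8 first-named and 1 of 8 second-named pools. Fgf15 was above background on 0 of 8.

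At day 5 in males 6 of the 38 genes rose and 7 fell (median −0.05), where 13.8% and 4.82% of all genes did. Abcc4 was higher by 2.32 ± 0.13, Slco1a1 stood at −2.30 ± 0.16 and Slco1a4, a related carrier, was 2.83-fold higher. In females 4 were higher and 7 lower (median −0.06), beside 12.7% and 6.25% of all genes, with Slco1a1 at −2.43 ± 0.16, Abcc4 at 1.76 ± 0.13 and Cyp46a1, the hydroxylase that forms the substrate of Cyp39a1, at −1.02 ± 0.08. Abcc4 was higher and Slco1a1 lower in all 3 comparisons of pools labelled Adeno-Cux2, as Slc51b and Slc10a1 were. Between untreated males and females 6 were higher and 6 lower (median 0.03), beside 4.84% and 6.04% of all genes, with Slco1a1 at 1.77 ± 0.16, Slco1a4 at −1.66 ± 0.09, Cyp46a1 at 1.35 ± 0.08 and Abcg2, an efflux transporter, at 1.16 ± 0.07. Probes of Slco1a and Abcb1 genes can also read close relatives.

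The signed difference of log2 ratios, day 5 minus day 3, was called above 0 for 14 of the 38 genes and below 0 for 2, where 8.15% and 4.9% of all genes were called. A difference above 0 can mean a smaller fall, as for Akr1c6, at −0.21 on day 5 and −1.60 on day 3. The 4 largest differences were Slco1a4 (1.98 ± 0.12), Slco1a1 (1.62 ± 0.22), Akr1d1, a steroid reductase of the synthesis route (1.42 ± 0.13), and Akr1c6, a steroid dehydrogenase (1.39 ± 0.10). Between females and males at day 5, 1 was higher and 1 lower, beside 0.0405% and 0.184% of all genes. Slco1a4 differed by −1.25 ± 0.12 (adjusted p = 0.0259), and Abcg2, which lies just outside the rule for naming, by 0.97 ± 0.10. With the sign of both female arrays turned, Slco1a4 differed by −1.75 ± 0.12 and Abcg2 by 1.03 ± 0.10.

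**Figure D4:**
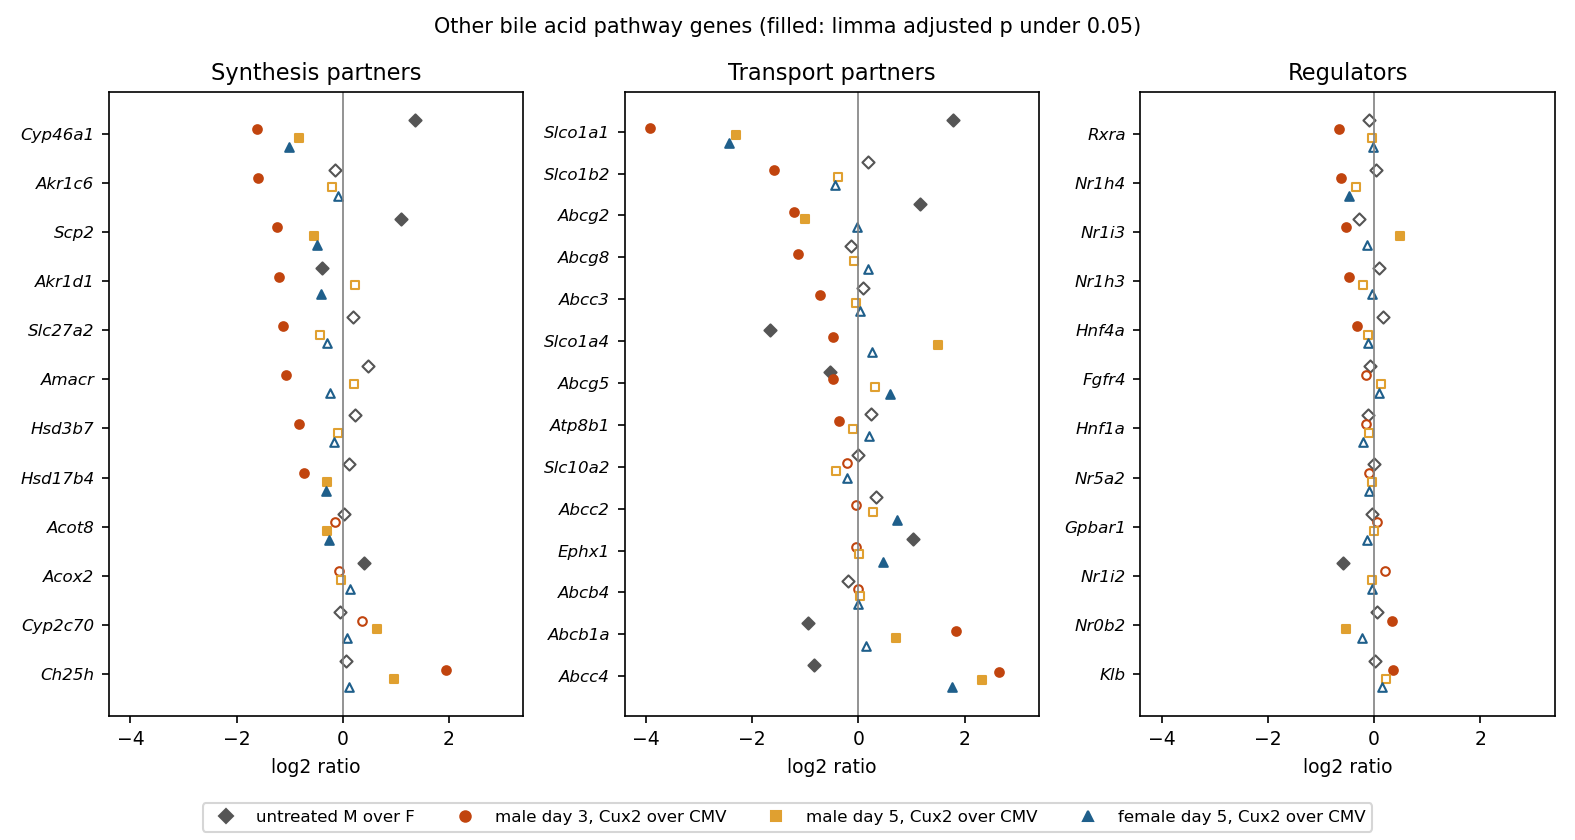
Log2 ratios (x axis) of the other 38 pathway genes, sorted within each role by the male day 3 value: diamonds are untreated males over females, and circles, squares and triangles are pools labelled Adeno-Cux2 over Adeno-CMV in males at day 3, males at day 5 and females at day 5. Filled symbols passed limma at an adjusted p under 0.05, with Slco1a1 at −3.92 and Abcc4 at 2.65 the extremes at day 3.

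Markers of other cells also moved with treatment, in comparisons where 23.9% of all genes (males, day 3), 13.8% (males, day 5) and 12.7% (females) were called higher. In the same order, 20.3%, 4.82% and 6.25% of all genes were called lower. At day 3 in males, 3 of 8 hepatocyte markers rose and 2 fell, with medians of 0.45 on replicate 1 and −0.36 on replicate 2 and a summed log2 signal of 20.1 to 20.7 in Adeno-Cux2 pools and 19.999 to 20.7 in Adeno-CMV pools. At day 5, 5 of 8 rose in males and 5 of 8 in females. Their medians on replicates 1 and 2 were 0.60 and 0.06 in males, and 0.67 and 0.10 in females. Cholangiocyte markers rose in 5 of 9 at day 3, with a median log2 ratio of 0.40. Prom1 (3.89) and Spp1 (2.22) rose most, and Sox9, Krt7, Cftr and Slc10a2 were not called. Prom1 was also lower in untreated males than in females (−2.09). The summed log2 signal, in which the brightest markers weigh most, was 16.6 to 16.8 in Adeno-Cux2 pools and 14.58 to 14.63 in Adeno-CMV pools. Bile duct cells are another source of Slc51b RNA. Cholangiocyte markers rose in 4 of 9 in males at day 5 and in 6 of 9 in females, and Slc10a2, the apical carrier of cholangiocytes on that list, passed in no comparison. Neutrophil markers rose in 5 of 5 in each treated comparison, and macrophage markers in 9 of 9 in males at day 5 and 6 of 9 in females. At day 3 in males 4 of 9 macrophage markers rose and 4 fell. Of 6 stellate cell markers 3 rose at day 3, 5 in males at day 5 and 4 in females. Skeletal muscle markers fell in 5 of 6 in females, with a summed log2 signal of 9.33 to 10.2 in pools labelled Adeno-Cux2 and 11.1 to 13.6 in pools labelled Adeno-CMV. At day 3, pancreas markers had medians of 0.07 on replicate 1 and 2.70 on replicate 2. The part of any of these markers in the bile acid genes' ratios was not tested.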

How the data were processed

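The arrays were read with Agilent Feature Extraction, whose version was 9.5.3.1 on the slide with untreated and day 5 male pools and 10.7.1.1 on the slide with female and day 3 male pools, per the file headers. Median spot and background signals were deposited as unnormalized intensity. The deposited LogRatio column is a log10 ratio after the software's own background and dye steps, and the deposited series matrix equals it with the sign turned on replicate 2. Spot flags in the deposited files take a value of 0 or 1. Array annotation is on mm8.

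From these, background was corrected by normexp (offset 50) and log2 ratios were normalized within arrays by loess in limma 3.58.1 (R 4.3.3), with control and outlier spots at weight 0. Of 41174 probes, 33335 were kept, those with a channel well above background on both arrays of some comparison. RefSeq (GRCm38.p6) named 24375 probes by accession, 6301 by symbol and 2422 by synonym, and 8076 kept the name in the files. A gene is called on its brightest probe.

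One limma model of 8 arrays had 4 comparison coefficients and a dye term, leaving 3 residual degrees of freedom (prior 3.90). Tests were 2-sided, and p-values were adjusted by Benjamini and Hochberg over all probes and called under 0.05. Replicates 1 and 2 have opposite dyes in every comparison, so the dye term is also the replicate block, and no source says that same-numbered pools share an animal. Steps were tested on simulated data.

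All 10 genes are reported. Other pathway genes were named if called with an absolute log2 ratio of at least 1, at most the 4 largest per comparison. Genes and lists were chosen with earlier results of these data known. The series text counts 11 untreated females, and the sample labels used here 10. The purpose stated for the female arrays names males. Alternatives varied background, normalization, probe filter, variance model and arrays in the fit, and used the deposited log ratios. Turning both female arrays was added after seeing the data.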

Additional observations from a re-analysis of the deposited data

Results flagged for a closer look

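With 2 arrays per comparison no array could be tested as an outlier. The response of males to Adeno-Cux2 differed between day 5 and day 3, by limma's test of the difference, in 9 of the 10 genes. Over all genes 8.15% were called higher and 4.9% lower in that test. The day 5 minus day 3 difference of log2 ratios was 1.91 for Cyp7a1 and 2.43 for Cyp8b1 in the classical route, and 0.91 for Cyp27a1 and 2.48 for Cyp7b1 in the alternative route. It was 0.59 for Baat and 1.47 for Slc27a5, the conjugation genes, and 1.95 for Slc10a1, −1.35 for Slc51b and 0.77 for Abcb11, the transporters. The difference between the female and male response at day 5 was called for 2 other transporters, at 0.97 for Abcg2 and −1.25 for Slco1a4. Over all genes 0.0405% were called higher and 0.184% lower for this difference. That contrast takes the female labels as given, against which the Cux2 probe goes, and with both female arrays turned it was 1.03 for Abcg2 and −1.75 for Slco1a4. Slide and scanner software version differ together with the time in the first contrast and with the sex in the second, and cannot be told apart from them.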

How the results depend on the processing

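The 35 calls of the 10 genes were set against 682 alternatives that keep the labelled directions: 601 kept the call and direction, 81 kept the direction but lost the call, and 0 turned. The counts of called genes, 4 in untreated mice, 6 in day 5 males, 6 in females and 9 for day 5 minus day 3, became 2, 3, 3 and 4 when fitted to the deposited log ratios or to the series matrix, and the first became 2 without background subtraction. Leaving out 1 array at a time gave 2 to 5 in untreated mice, 2 to 7 in day 5 males and 2 to 10 for day 5 minus day 3. The count at day 3 stayed at 9 or 10 in every alternative run. Without the dye term, which is the replicate block, the counts were 4 in untreated mice, 10 in day 3 males, 6 in day 5 males and 5 in females, with 0 for female minus male and 9 for day 5 minus day 3. The call lost there was Cyp27a1 in females (−0.32, adjusted p = 0.113). The cause of these losses was not tested.

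Of 25 results not called, 15 of 478 such alternatives passed and 11 turned sign. Slc10a1 in untreated mice was −0.0073 without background subtraction and −0.024 with median centring. Leaving out 1 array at a time gave −0.22 to 0.22 for Slc10a1 and −0.37 to 0.0055 for Slc27a5 in untreated mice, and −0.019 to 1.12 for Cyp7a1 in females. For female minus male it gave −0.65 to 0.49 for Cyp7a1, −0.41 to 0.078 for Slc51b, −0.47 to 0.037 for Baat, −0.23 to 0.067 for Slc27a5 and −0.29 to 0.18 for Slc10a1. With the sign of both female arrays turned, chosen after seeing the data, female minus male called 9 genes in place of 0, and turned to 3.05 for Cyp8b1, 0.50 for Cyp27a1, 2.46 for Cyp7b1, 0.70 for Baat, 0.46 for Slc27a5 and 1.86 for Slc10a1. Turning restates the labelled responses, so it cannot test the labels. The number of arrays limits the precision, and the median standard error was 0.0783 for a comparison.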
